A study of Mus musculus with 4 samples.

Results

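Integrins are cell surface receptors made of an α and a β subunit, and laminins are secreted trimers of an α, a β and a γ chain that form the scaffold of basement membranes. Their genes were examined in RNA sequencing data of FACS-enriched (flow-sorted) tdTomato-positive cells of the embryonic mouse forebrain at E16. The genes were taken by their GENCODE M21 symbols as all protein-coding integrin α, integrin β and laminin chain genes. This gave 37 of the 21980 protein-coding genes in the files, namely 18 α integrins, 8 β integrins and 11 laminins.

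The 4 libraries comprised 2 from *Hmx3-Cre/tdTomato/Dnmt1* wild-type embryos (WT) and 2 from embryos of the same *Hmx3-Cre* and *tdTomato* transgenes with loxP sites around exons 4 and 5 of *Dnmt1* (KO). Cre acts in *Hmx3*-expressing cells of the preoptic area (POA), a source of cortical interneurons, and the tdTomato reporter marks these cells and their descendants. Cells of 12 WT and 6 KO embryos were pooled. The labels describe biological replicates and name the basal telencephalon as the dissected region, whereas the study's methods describe technical duplicates of pools from the POA. The p-values therefore measure the spread between libraries, which may be technical.

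Integrins link the extracellular matrix to the actin cytoskeleton, and which matrix protein is bound depends mainly on the α subunit. α3β1, α6β1, α7β1 and α6β4 bind laminins, α1β1, α2β1, α10β1 and α11β1 bind collagens, and αv integrins bind proteins with an arginine-glycine-aspartate motif such as vitronectin. In the developing brain, radial glial endfeet are anchored through laminin receptors to the pial basement membrane, and astrocyte endfeet attach to the laminins around blood vessels.

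The total was 8075102 to 9995968 counts per library, so that 3 counts equal 0.293 to 0.371 CPM (counts scaled to library size with TMM factors). WT replicate 1 had 8.66% of its counts in mitochondrial rRNA, against 1.51% to 2.32% in the other libraries. The WT libraries differed more from each other than the KO libraries, with a biological coefficient of variation of 0.234 and 0.103, so that fits without a WT library rest on the smaller KO spread and those without a KO library on the larger WT spread. *Dnmt1* had 3103 and 4557 counts in the WT libraries against 2383 and 2552 in those of KO, a log2 fold change of -0.56 (standard error [SE] 0.14, adjusted p = 0.0511 by edgeR, and called in 7 of 10 alternative fits with all libraries). Counts over the whole gene do not show the deleted exons themselves. Markers of the sorted cells were present in all libraries, with 604 to 919 counts of *Hmx3*.

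Of the 37 genes, 29 passed edgeR's expression filter and were tested, of which 9 were called higher in KO (adjusted p under 0.05 by edgeR). They were the laminin chains *Lama2*, *Lama3*, *Lama5*, *Lamb2* and *Lamc3* and the integrin subunits *Itga1*, *Itga7*, *Itgav* and *Itgb5*. Of all 16832 tested genes, 7.33% were higher and 0.57% were lower by the same rule, so that 31.0% of the tested genes of the 2 families compare with 7.33% in the background. This background was not limited to protein-coding genes. It was also not matched for exonic length, whose median was 7015 bases for the 37 genes and 4020 for all tested genes. By edgeR, 0 of the 29 genes were lower, also at an unadjusted p under 0.05 (8.01% of all tested genes), and DESeq2 and limma-voom likewise gave 0. Their log2 fold changes had a median of 0.73, against -0.03 over all tested genes. Both KO libraries were above both WT libraries for 18 of the 29 genes, against 28.2% of all tested genes, and below them for 1, against 25.3%. *Itga2*, *Itga5*, *Itga7*, *Itga11* and *Itgb7* reached the filter level of 1.13 CPM in both KO libraries but not in both WT libraries, which favours genes that are higher in KO. When each library had to reach 10 counts, 9 of 25 genes were called (5.81% of all tested genes), with *Itgb4* in place of the untested *Itga7*, and unfiltered it was 11 of 36 (5.97% of all tested genes). At an unadjusted p under 0.05, 14 of the 29 genes were higher by edgeR, against 14.6% of all. Without WT replicate 1, 14 genes were higher in place of 9, when 14.9% of all tested genes were, and without KO replicate 2 the number was 8, when 4.89% of all were.

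**Figure D1:**
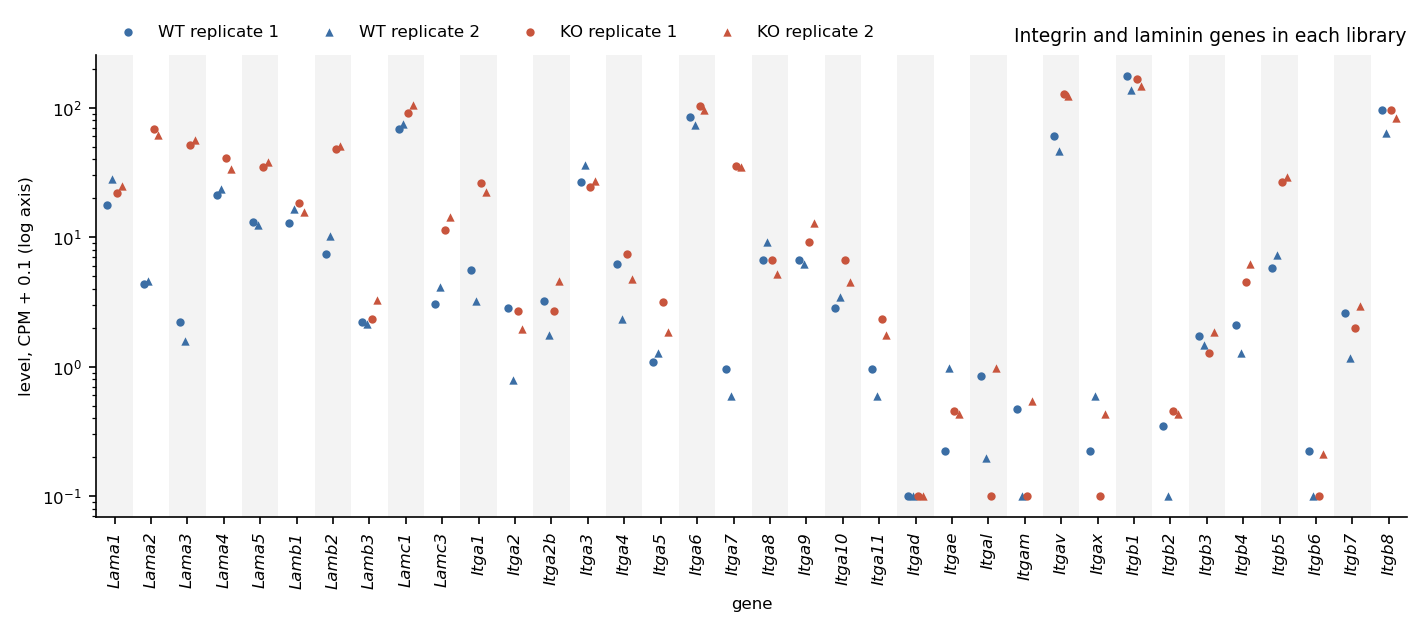
Level of the integrin and laminin genes described here in each library as CPM plus 0.1 on a log axis, with WT in blue, KO in red, replicate 1 as circles and replicate 2 as triangles. The red points of *Lama2*, *Lama3*, *Lamb2*, *Itga1*, *Itga7* and *Itgb5* lie well above the blue ones, whereas those of *Itgb1*, *Itgb8* and *Lama1* overlap, and *Itgad* is at 0 counts in every library.

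Because DNMT1 acts on CpG dinucleotides, the sequence upstream of the start site is shown for the called genes with the largest increase, at least 10 counts in every library and a promoter entry in RefSeq (GRCm38.p6). Each is the 250 bases before the start, 5′ to 3′, with CpG in capitals.
*Lama2*, chr10:27616943-27617192, minus strand: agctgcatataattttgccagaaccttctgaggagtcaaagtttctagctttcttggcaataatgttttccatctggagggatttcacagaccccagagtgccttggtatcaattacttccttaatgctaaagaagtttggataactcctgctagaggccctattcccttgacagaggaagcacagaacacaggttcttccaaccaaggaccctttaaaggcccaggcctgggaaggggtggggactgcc
*Itga1*, chr13:115101965-115102214, minus strand: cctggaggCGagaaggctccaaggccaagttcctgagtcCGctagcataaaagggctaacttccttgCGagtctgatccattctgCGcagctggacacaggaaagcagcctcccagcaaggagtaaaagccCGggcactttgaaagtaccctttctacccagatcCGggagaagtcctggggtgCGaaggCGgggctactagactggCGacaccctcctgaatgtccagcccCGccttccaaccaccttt
*Lamb2*, chr9:108479612-108479861, plus strand: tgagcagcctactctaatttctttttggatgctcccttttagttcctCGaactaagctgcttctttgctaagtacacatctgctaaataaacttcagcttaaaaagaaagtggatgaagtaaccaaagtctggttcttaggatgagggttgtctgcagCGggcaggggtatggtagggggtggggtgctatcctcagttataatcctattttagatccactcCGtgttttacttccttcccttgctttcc
In GENCODE M21 the *Lama2* window lies in an intron of a longer gene model, that of *Itga1* directly before the gene, and that of *Lamb2* covers the start of the gene model with small parts of its exons. The *Lama2* window had 0 CpG, that of *Lamb2* 3 and that of *Itga1* 10, against a median of 6 over all 32851 windows of this kind. A window was given for 23 of the 37 genes and for 6 of the 9 called genes. Those of *Itgav*, *Itgb5* and *Lama5* held 18, 18 and 19 CpG. The called genes thus covered the range from none to more than in 80.3% of all windows. *Itgb1*, with 21 CpG, and *Itga10*, with 2, did not pass the test. The GC box GGGCGG was on either strand of the *Itgb5* and *Lama5* windows but not of those of *Lama2*, *Itga1*, *Lamb2* and *Itgav*, and it occurred in 32.7% of all windows. These counts describe the sequence only, and the MeDIP (methylated DNA immunoprecipitation) data of the study were not analysed here.

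Laminin α chains carry the cell-binding globular domains of the trimer. *Lama2*, the α2 chain of muscle and of the vascular basement membrane of the brain, is encoded on the minus strand of chromosome 10 (GRCm38, 26980036 to 27619758). It had 34 and 46 counts in the WT libraries against 575 and 564 in those of KO, or 4.35 ± 0.203 CPM (SD, n = 2) and 65.0 ± 4.40 CPM (SD, n = 2). The log2 fold change was 3.89 (SE 0.20, adjusted p = 1.23e-05 by edgeR). *Lama3*, the α3 chain best known from epithelia, lies on chromosome 18. It had 17 and 15 counts in the WT libraries against 433 and 511 in those of KO, or 1.78 ± 0.451 and 53.7 ± 3.38 CPM (SD, n = 2 each), which gave a log2 fold change of 4.92 (SE 0.25, adjusted p = 1.26e-05 by edgeR). For both genes the spread between the KO libraries was small against the distance to WT, and no library of one genotype reached the other.

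*Lama5*, the widely expressed α5 chain, rose less, from 105 and 127 WT counts to 291 and 345 KO counts. Its log2 fold change was 1.51 (SE 0.19, adjusted p = 0.00176 by edgeR). *Lama4*, the α4 chain of vessels, had 171 and 241 counts in the WT libraries against 342 and 308 in those of KO and narrowly missed the threshold (log2 fold change 0.73, SE 0.18, adjusted p = 0.0516 by edgeR). It passed in 6 of 10 alternative fits with all libraries. With a library left out, its log2 fold change ranged from 0.60 to 0.86. *Lama1*, the α1 chain of the early embryo and the pial surface, had 142 and 285 counts in the WT libraries against 185 and 226 in those of KO, so that the KO libraries lay between those of WT. Its log2 fold change was 0.04, with a 95% interval from -0.54 to 0.61.

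The β and γ chains complete the trimer. *Lamb2* (chromosome 9, 108479736 to 108490530) had 59 and 104 counts in the WT libraries against 406 and 461 in those of KO. This was an increase from 8.73 ± 2.02 to 49.3 ± 1.76 CPM (SD, n = 2 each), with a log2 fold change of 2.49 (SE 0.21, adjusted p = 0.000234 by edgeR). *Lamb1*, which takes the same place in many trimers, had 104 and 167 counts in the WT libraries against 154 and 142 in those of KO, and its log2 fold change of 0.21 had a 95% interval from -0.34 to 0.76. *Lamc3* rose from 24 and 41 counts to 95 and 129 (log2 fold change 1.85, SE 0.32, edgeR adjusted p = 0.00949), but did not pass without KO replicate 2 (adjusted p = 0.0558). *Lamc1*, the γ chain of most laminins, had 549 and 765 counts in the WT libraries against 772 and 959 in those of KO. Although both KO libraries were above both WT libraries, its log2 fold change of 0.46 did not pass (SE 0.15, adjusted p = 0.118 by edgeR). It passed in 3 of 10 alternative fits with all libraries, among them the one with a correction for length and GC content (adjusted p = 0.0138). With a library left out, its log2 fold change ranged from 0.36 to 0.56.

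*Lamb3*, the β chain that pairs with α3 in epithelial laminin, was not among the called genes. It had 17 and 21 counts in the WT libraries against 19 and 29 in those of KO, with a log2 fold change of 0.39 (SE 0.48). To compare chains with each other, levels were divided by exonic length (RPKM). On this scale, *Lama3* stood at 4.99 in KO on average and *Lamb3* at 0.411.

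The summed RPKM of the 5 laminin α chains was 5.16 and 6.33 in WT and 17.6 and 17.7 in KO. *Lama1* and *Lama4* held 40.3% and 32.4% of this sum in WT on average, and 13.7% and 17.5% in KO. *Lama3* went from 2.97% to 28.3% and *Lama2* from 4.67% to 22.6%, and *Lama5* held 17.2% to 22.1% in the WT and 17.2% to 18.8% in the KO libraries. Among the β chains, the mean share of *Lamb2* was 44.3% in WT and 79.3% in KO, and that of *Lamb1* 45.7% and 16.7%. *Lamc1* remained the main γ chain with 93.2% and 84.7%. Shares are given as a description, without a test.

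**Figure D2:**
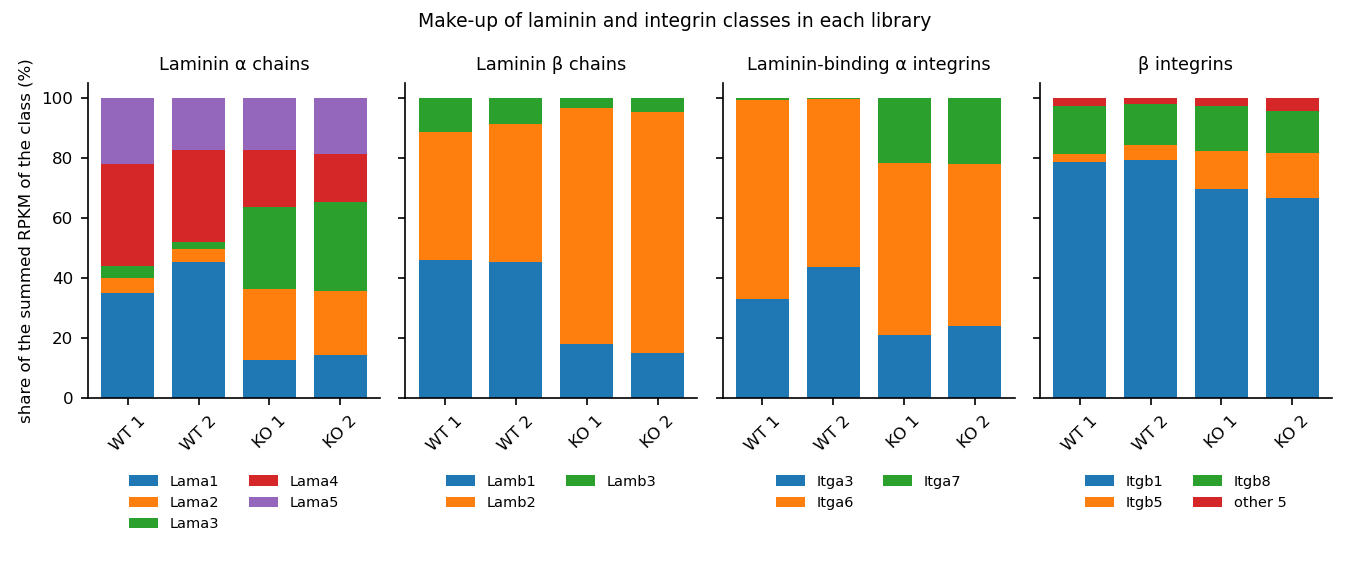
Share of each gene in the summed RPKM (counts per exonic length and library size) of its class, in percent, for each of the 4 libraries. *Lama3* goes from 2.97% to 28.3% of the laminin α chains, *Lamb2* goes from 44.3% to 79.3% of the β chains, and *Itga7* from 0.588% to 21.8% of the laminin-binding α integrins. This last class holds *Itga3*, *Itga6* and *Itga7* but not *Itga1*.

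*Itga7*, the laminin-binding α7 subunit known from muscle and from glia, had the largest log2 fold change of the 29 tested genes. It lies on chromosome 10 from 128933818 to 128958282 and had 7 and 5 counts in the WT libraries against 300 and 319 in those of KO. In WT its level was 0.677 ± 0.267 CPM, and in KO it was 35.3 ± 0.376 CPM (SD, n = 2 each), with a log2 fold change of 5.71 (SE 0.32, adjusted p = 2.14e-05 by edgeR). *Itga6* and *Itga3*, the α subunits grouped here with *Itga7* as laminin-binding, did not pass the test. *Itga6* had 683 and 746 counts in the WT libraries against 877 and 875 in those of KO (log2 fold change 0.35, SE 0.15, edgeR adjusted p = 0.226). It passed with the length and GC correction (adjusted p = 0.0381), and with a library left out its log2 fold change ranged from 0.24 to 0.45. *Itga3* had 215 and 369 counts in the WT libraries against 206 and 248 in those of KO, with a log2 fold change of -0.28 and a 95% interval from -0.75 to 0.19. By RPKM, *Itga7* held 0.588% of the sum of these 3 subunits in WT and 21.8% in KO, while *Itga6* led in both with 61.1% and 55.5%.

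*Itga1*, the collagen-binding α1 subunit that also binds laminin, lies on chromosome 13 from 114953096 to 115101964 on the minus strand. It had 44 and 32 counts in the WT libraries against 221 and 204 in those of KO, or 4.29 ± 1.64 CPM (SD, n = 2) and 24.3 ± 2.68 CPM (SD, n = 2), and its log2 fold change was 2.52 (SE 0.31, adjusted p = 0.00171 by edgeR). The other collagen-binding subunits were low and did not pass. *Itga10* had 22 to 55 counts per library (log2 fold change 0.84), *Itga11* 5 to 19 (1.53) and *Itga2* 7 to 22 (0.42). Both KO libraries were above both WT libraries for *Itga10* and *Itga11*, whereas those of *Itga2* overlapped with WT.

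*Itgav*, the αv subunit, was already among the most abundant genes of the 2 families in WT. It lies on chromosome 2 from 83724397 to 83806916 and rose from 489 and 470 WT counts to 1083 and 1123 KO counts, a log2 fold change of 1.24 (SE 0.17, adjusted p = 0.00321 by edgeR). Of its β partners, *Itgb5* (chromosome 16, 33829665 to 33949338) was higher as well. It had 46 and 74 counts in the WT libraries against 226 and 266 in those of KO, or 6.46 ± 1.09 and 28.0 ± 1.71 CPM (SD, n = 2 each), with a log2 fold change of 2.11 (SE 0.24, adjusted p = 0.00102 by edgeR). *Itgb8*, whose pairing with αv activates latent TGFβ in the brain, had 774 and 651 counts in the WT libraries against 808 and 757 in those of KO. Its log2 fold change of 0.17 had a 95% interval from -0.31 to 0.65. It passed with the length and GC correction (0.51, adjusted p = 0.00772). Its log2 fold change was 0.49 without WT replicate 1 and had the opposite sign without WT replicate 2 (-0.10). *Itgb3* had 10 to 16 counts and *Itgb6* at most 1 count in every library.

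*Itgb1*, the common partner of most α subunits, had the highest RPKM of the 37 genes in both genotypes. It had 1426 and 1389 counts in the WT libraries against 1402 and 1338 in those of KO, and 156 ± 28.8 and 156 ± 13.6 CPM (SD, n = 2 each). The log2 fold change was 0.005 with a 95% interval from -0.39 to 0.40. Among the β subunits, its share of the summed RPKM was 79.0% in WT and 68.1% in KO, beside 3.89% and 14.0% for *Itgb5*. *Itgb4*, the partner of α6 in hemidesmosomes, had 16 and 12 counts in the WT libraries against 37 and 56 in those of KO. Its log2 fold change of 1.75 did not pass (SE 0.47, adjusted p = 0.0652 by edgeR), but did in 7 of 10 alternative fits with all libraries. With a library left out, it ranged from 1.41 to 2.15.

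The fibronectin receptor subunit *Itga5* had 8 and 12 counts in the WT libraries against 26 and 16 in those of KO (log2 fold change 1.14, edgeR adjusted p = 0.283). *Itga8*, which pairs with β1 to bind nephronectin, was the only one of the 29 genes with both KO libraries below both WT libraries in CPM, with 53 and 93 counts in the WT libraries against 55 and 46 in those of KO (log2 fold change -0.44, edgeR adjusted p = 0.469). *Itga9* had 53 and 63 counts in the WT libraries against 76 and 117 in those of KO (0.78, edgeR adjusted p = 0.176). *Itga4*, a receptor of VCAM1, had 49 and 23 counts in the WT libraries against 62 and 42 in those of KO, and its edgeR adjusted p was 0.569. With a library left out, its log2 fold change ranged from -0.03 to 1.40.

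Several integrins of blood cells were near 0 counts. The leukocyte subunits *Itgal*, *Itgam*, *Itgax*, *Itgae* and *Itgb2* had at most 9 counts in a library, *Itgad* had none, and none of them was tested. The protein-coding gene model *Gm49368* overlaps 68.7% of the exonic bases of *Itgam* on the same strand and *Gm42957* 33.5% of those of *Itga10*, so that the counts of *Itgam* and *Itga10* are uncertain. *Itga2b*, the platelet αIIb subunit, had 17 to 41 counts and *Itgb7* 11 to 26, with overlapping genotypes and log2 fold changes of 0.60 and 0.44. Of the 9 called genes, *Lamc3* shared the largest part of its exonic bases with another gene (6.27%, with *Gm13441*, which had 0 counts).

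**Figure D3:**
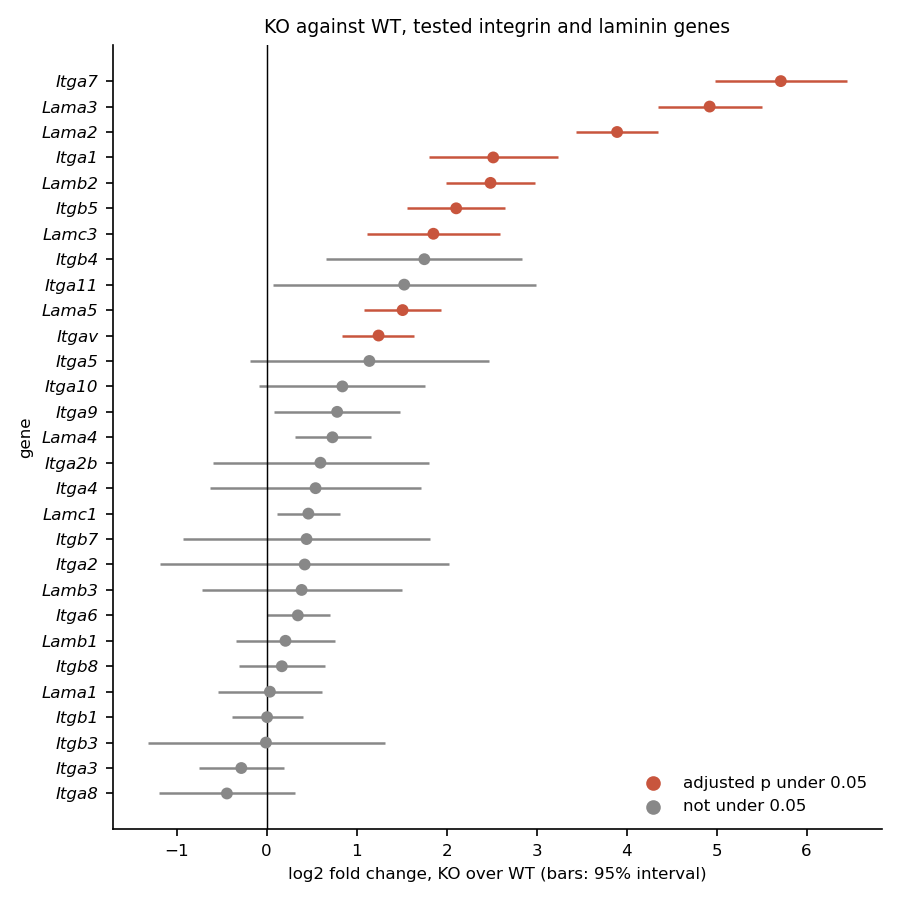
Log2 fold change of KO over WT for the 29 tested genes with 95% intervals from edgeR's quasi-likelihood test, in red where the adjusted p was under 0.05. The 9 red genes range from 1.24 (*Itgav*) to 5.71 (*Itga7*), and the intervals of *Itgb1*, *Itgb8*, *Lama1* and *Lamb1* span 0.

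Partner genes were examined in 4 lists. Of 18 tested integrin adaptor and signalling genes, 2 were higher in KO, against 7.33% of all tested genes, so that the count was near the background. *Vcl*, which encodes the actin-linking protein vinculin, rose from 83 and 116 counts to 776 and 760 (log2 fold change 3.02, SE 0.17, edgeR adjusted p = 2.25e-05). *Fermt2*, which encodes the integrin activator kindlin-2, rose from 485 and 624 to 1192 and 1242 (1.20, edgeR adjusted p = 0.00135). At an unadjusted p under 0.05, 5 of the 18 were higher by edgeR, against 14.6% of all tested genes. They included *Lims2* (log2 fold change 1.01), *Pxn* (0.52) and *Tln1* (0.49), whose edgeR adjusted p were 0.151, 0.0977 and 0.103. *Tln2* (0.10), *Ptk2* (0.10), *Lims1* (0.01), *Parva* (-0.002) and *Zyx* (0.003) had log2 fold changes near 0, and the median of the list was 0.15. Without WT replicate 2, 5 genes of this list were higher, as were 12.8% of all tested genes. *Ilk*, with no count in WT and 7 and 15 in KO, was not tested.

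Among 13 tested genes of other basement membrane proteins, 4 were higher (7.33% of all tested genes), and the log2 fold changes had a median of 0.63. They were *Col4a5* (1.65), *Sparc* (1.02), *Col4a2* (0.81) and *Col4a1* (0.63), with edgeR adjusted p of 0.00978, 0.00599, 0.0294 and 0.0492. *Col4a1* and *Col4a2*, the main collagen IV chains, passed in neither fit without a KO library, and the count fell to 1 without KO replicate 1 as well as without KO replicate 2, when 4.19% and 4.89% of all tested genes were higher. *Agrn*, which encodes the laminin-binding proteoglycan agrin, had 7140 to 9900 counts and a log2 fold change of -0.03.

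Of 15 tested genes of other integrin ligands, 4 were higher (7.33% of all tested genes), and the log2 fold changes had a median of 0.50. *Mfge8*, a ligand of αvβ5 and αvβ3, rose from 200 and 338 counts to 2481 and 2840 (3.39, SE 0.18, edgeR adjusted p = 1.77e-05). *Vtn*, which encodes vitronectin, rose from 40 and 82 to 486 and 605 (3.24, edgeR adjusted p = 0.000106). *Vcam1* (2.01, edgeR adjusted p = 0.000683) and *Tgfb3* (1.81, edgeR adjusted p = 0.0298) were also higher, of which *Tgfb3* did not pass without KO replicate 1 or KO replicate 2 (adjusted p = 0.164 and 0.0979). *Fn1*, which encodes fibronectin, had 339 and 398 counts in the WT libraries against 225 and 272 in those of KO (-0.51, edgeR adjusted p = 0.116). *Reln*, *Edil3* and *Npnt* also had both KO libraries below both WT libraries, with log2 fold changes of -0.32, -0.48 and -0.50. The same order was found for 25.3% of all tested genes. By edgeR, 0 genes of this list were lower at an adjusted p under 0.05 and 3 at an unadjusted p under 0.05 (8.01% of all tested genes), and with DESeq2 and limma-voom 0 were lower. The number was 1 without WT replicate 1 and 2 without WT replicate 2, when 7.09% and 12.7% of all tested genes were lower.

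Dystroglycan is a laminin receptor that is not an integrin, and it depends on sugar chains added by a set of glycosyltransferases. Of 13 tested genes of this list, 3 were higher (7.33% of all tested genes), and the log2 fold changes had a median of 0.11. All 3 encode proteins of the cytoplasmic side of the complex, namely *Dtna* (2.29, SE 0.16, edgeR adjusted p = 6.69e-05), *Utrn* (1.70, edgeR adjusted p = 0.000221) and *Dmd* (1.40, edgeR adjusted p = 0.00604). *Dtnb*, also of that side, did not pass (-0.05, edgeR adjusted p = 0.899). *Dag1* itself had 1075 and 1448 counts in the WT libraries against 1196 and 1676 in those of KO (0.25, edgeR adjusted p = 0.417). Among the genes of its glycosylation, *Pomt2* and *Pomgnt2* had log2 fold changes of 0.31 each and did not pass the test (edgeR adjusted p = 0.288 and 0.382). Without WT replicate 2, 5 genes of the list were higher, again against 12.8% of all tested genes.

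Markers of several other cell types moved with these genes. The counts of called markers compare with 7.33% of all tested genes higher and 0.57% lower. All 8 astrocyte markers were higher in KO by edgeR, with a summed level of 210 to 227 CPM in WT and 3237 to 3457 CPM in KO. Neither WT library had a count of *Gfap*, and *Aqp4* had 0 and 4. Of 8 mural cell markers 6 were higher, with 58.4 to 63.9 CPM in WT and 360 to 362 CPM in KO, and *Acta2* had 0 counts in both WT libraries. Of 8 markers of the oligodendrocyte lineage 4 were higher (1310 to 1364 and 1931 to 1964 CPM), and of 8 tested microglial markers 2 (34.8 to 44.1 and 77.8 to 78.1 CPM). The endothelial markers summed to 21.3 to 23.2 CPM in WT and 24.4 to 27.4 CPM in KO, and by edgeR 0 of 7 tested were higher and 0 lower. By an unadjusted p under 0.05, 1 was higher and 2 were lower (14.6% and 8.01% of all tested genes). DESeq2 and limma-voom gave 0 lower. Of 9 neuronal markers, *Elavl4* and *Stmn2* were lower by edgeR, and 7 were at an unadjusted p under 0.05 (8.01% of all tested genes). DESeq2 gave 3 lower and limma-voom 2, and *Stmn2* was called in 6 of 10 alternative fits with all libraries. The 9 markers summed to 5627 to 6200 CPM in WT and 4175 to 4244 CPM in KO. The 6 radial glia markers summed to 954 to 956 CPM in WT and 1075 to 1147 CPM in KO, the 5 markers of meningeal fibroblasts to 30.9 to 34.0 and 34.7 to 40.3 CPM, and the 9 of inhibitory and preoptic neurons to 1364 to 1520 and 1163 to 1277 CPM, and no gene of these 3 lists was called by edgeR. At an unadjusted p under 0.05, 3 of 6 tested radial glia markers and 1 of 3 tested fibroblast markers were higher (14.6% of all tested genes), and 2 of 9 markers of inhibitory and preoptic neurons were lower (8.01% of all tested genes). Of 5 platelet markers, *Pf4*, *Gp9* and *Ppbp* had 0 counts in every library, whereas *Gp1ba* had 41 to 49 and *Gp1bb* 5 to 20. The part of these cell types in the higher laminin and integrin levels was not tested, and in such bulk libraries more cells of a type and more RNA per cell cannot be told apart.

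**Figure D4:**
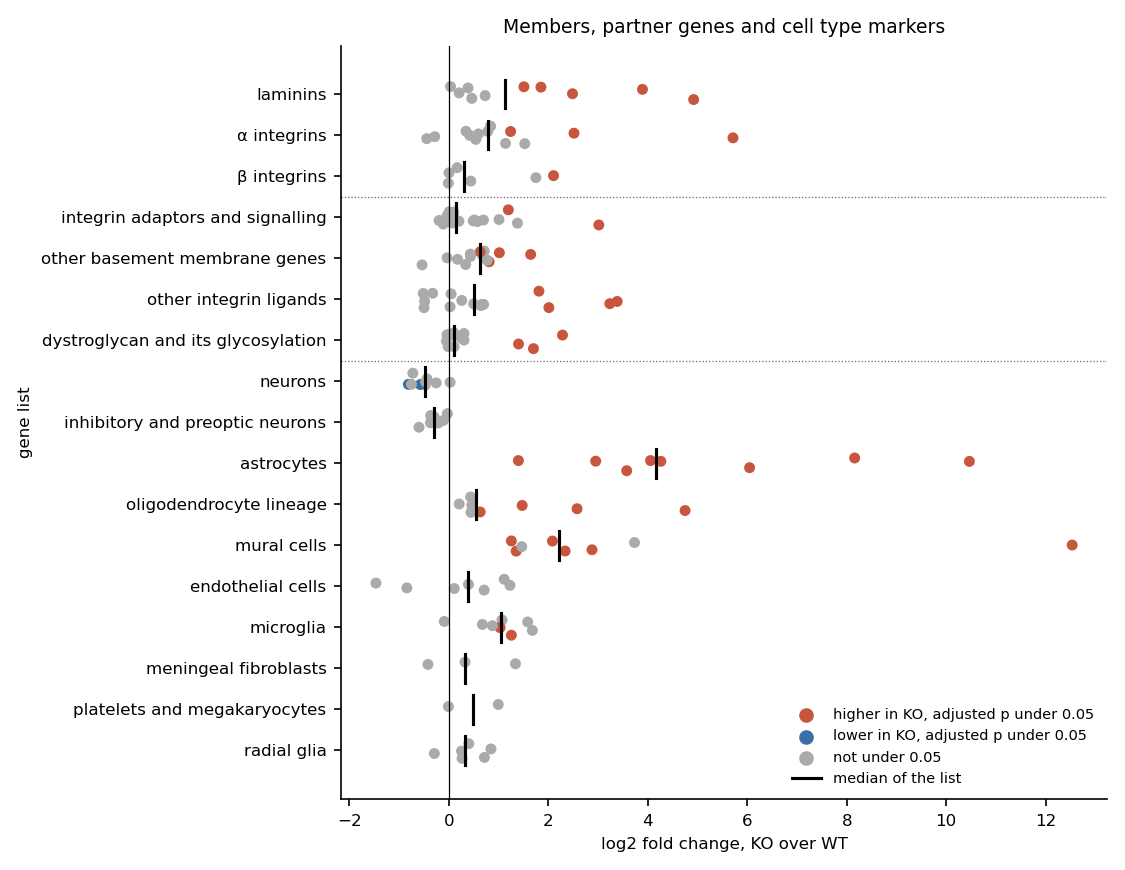
Log2 fold change of KO over WT for each tested gene of the laminins and integrins (top), of the 4 lists of partner genes (middle) and of the cell type markers (bottom), with a black bar at the median of each list. Red and blue points had an edgeR adjusted p under 0.05. *Gfap* and *Acta2*, which lie farthest to the right, had 0 counts in WT, so that their position depends on the fit and gives no fold.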

How the data were processed

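The RNA sequencing files used here hold raw counts of reads for 55573 Ensembl genes in each of 4 libraries, as deposited by the authors. The submitters' processing notes name CASAVA 1.8.2, STAR 2.5.2a, featureCounts 1.5.0-p1 and the builds mm10 and GRCm38. Annotation release and strand setting are not given in the sources used here, and reads of antisense genes could not be told apart.

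Symbols, positions and exonic lengths were taken from GENCODE M21 (55480 genes matched). Differences were tested in R 4.3.3 by the quasi-likelihood method of edgeR 4.0.16 with TMM factors and a single genotype term, on 16832 genes left by its filter. The Benjamini-Hochberg adjustment covered all tested genes (threshold 0.05), and 95% intervals used the moderated degrees of freedom. CPM and RPKM used TMM-scaled totals. Alternatives were DESeq2 1.42.0, voom (limma 3.58.1), other normalizations and filters, a replicate block, a correction for length and GC content (mgcv 1.9.3), and each library left out. The test was run on simulated counts with the same spread in both genotypes, unlike that of these libraries, and the outcome is not reported here. Integrin and laminin genes are named, with up to 4 called genes per list and direction. Other list genes were named after their values were seen. Members and lists were chosen with earlier results of these data known. Protein sequences were not used here, and some genes are counted but not reported here.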

Additional observations from a re-analysis of the deposited data

How the results depend on the processing

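The 9 called integrin and laminin genes passed in every fit with all libraries in which they were tested, and with a library left out only *Lamc3* lost its call, without KO replicate 2. The number of higher genes was 14 with the length and GC correction and also with the replicate block added to it, and 8 to 14 with a library left out. With 2 replicate numbers the samples could not be shown to be paired (correlation of same-numbered deviations 0.137). The replicate block alone gave 12 higher genes of the 2 families, 1625 higher and 619 lower genes of 16832 in all, and 4 higher adaptor genes, and with the length and GC correction 2195 higher and 867 lower genes in all, 5 higher adaptor genes and 1 lower ligand gene. The correction alone gave 2025 higher and 698 lower genes and 4 higher adaptor genes. Against 96 lower genes in all, DESeq2 gave 247, no filter 573 and at least 10 counts in every library 52. With a library left out, 706 to 2514 genes were higher and 20 to 2144 lower, and the lists gave 2 to 5 (adaptors), 1 to 6 (basement membrane) and 3 to 5 (dystroglycan) higher and 0 to 2 lower genes (ligands). The cause was not tested.

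Log2 fold changes near 0 turned sign for *Itgb1* (-0.0012 with DESeq2, -0.0013 with its size factors) and *Itgb3* (0.10 with library size only, 0.0324 with upper quartile factors, 0.0322 with at least 10 counts). With a library left out they ranged from -0.17 to 0.20 for *Itgb1*, from -0.31 to 0.24 for *Itgb3*, from -0.29 to 1.68 for *Itga2*, from -0.0252 to 1.40 for *Itga4*, from -0.0538 to 1.14 for *Itgb7*, from -0.0994 to 0.49 for *Itgb8* and from -0.26 to 0.41 for *Lama1*. With 2 libraries per genotype and few counts, small differences in the low genes could not be detected.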
